A study of Homo sapiens with 9 samples.

Results

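RNA levels of the IGF binding proteins IGFBP2, IGFBP3, IGFBP4, IGFBP5, IGFBP6 and IGFBP7 and of the receptors IGF1R, IGF2R and INSR were followed across 3 cell lines of the U87 glioblastoma family. These 9 genes, of 60606 in the deposited table, were chosen by name, and the choice was made with a result of these data in view: IGFBP3 was among the genes most lowered in Diff cells. Values of IGFBP3 are therefore given as a description in every comparison, as are those of all 9 genes between Diff cells and U87. The binding proteins moved apart from one another. IGFBP3 RNA was 606 ± 55.1 TPM (SD, n = 3) in U87, 47.9 ± 11.3 in GSCs and 6.44 ± 0.316 in Diff cells, whereas IGFBP4 rose in GSCs and fell in Diff cells, and IGFBP7 did the reverse. The unit TPM corrects for gene length and for library size, each library summing to 1000000, so that levels of genes can be set side by side.

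The study sequenced 3 libraries per line to compare a parental glioblastoma line with its radioresistant derivatives. U87 is that parent, a human glioblastoma line long in use, here in its wild-type form and grown in DMEM with fetal bovine serum. The GSCs are stem cells derived from U87 that had been selected by repeated irradiation, grown without serum in DMEM/F12 with B27, bFGF and EGF. The Diff cells are the progeny of those GSCs, differentiated in DMEM with serum, taken from clonal communities and kept in the same medium as U87. Both derived lines thus share the irradiation, and no unirradiated GSCs were sequenced. Irradiation, stem state and medium cannot be told apart between GSCs and U87. Between Diff cells and GSCs the same holds for stem state, medium and clonal selection. Between Diff cells and U87 it holds for irradiation, passage through the stem state and clonal selection. The labels number the replicates without saying that they are separate cultures, so p-values measure only the spread between these libraries, which may be technical.

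IGFs are small peptide growth factors related to insulin. They act through IGF1R and INSR, which are receptor tyrosine kinases, while IGF2R takes IGF2 into the cell for degradation and also sorts lysosomal enzymes that carry mannose 6-phosphate. Secreted binding proteins hold most IGF outside cells, lengthen its life and limit its access to the receptors, and proteases that cut them release it again. Several binding proteins also act on cells without IGF, through integrins or receptors of their own. In glioma, IGF1R is studied for its part in survival after irradiation, and IGFBP2 and IGFBP3 as genes of aggressive tumors.

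IGFBP3, IGFBP4 and IGFBP5 were the binding protein genes whose fitted level in Diff cells lay under that in GSCs by over 1 on the log2 scale. The 250 bases before the transcription start of each are printed here for that reason, from the RefSeq table of GRCh38.p14, 5′ to 3′ on the strand of the gene. The windows are chr7:45921273-45921522 on the minus strand for IGFBP3, chr17:40443200-40443449 on the plus strand for IGFBP4 and chr2:216695550-216695799 on the minus strand for IGFBP5. The IGFBP3 start used by RefSeq lies inside the gene span of GENCODE 29, in which another transcript of IGFBP3 begins further upstream. Capitals mark matches to the motifs searched.
IGFBP3: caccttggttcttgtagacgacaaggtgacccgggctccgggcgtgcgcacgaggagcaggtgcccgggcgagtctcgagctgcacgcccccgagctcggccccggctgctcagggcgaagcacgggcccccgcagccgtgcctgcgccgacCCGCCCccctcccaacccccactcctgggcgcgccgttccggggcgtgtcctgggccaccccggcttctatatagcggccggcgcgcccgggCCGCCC
IGFBP4: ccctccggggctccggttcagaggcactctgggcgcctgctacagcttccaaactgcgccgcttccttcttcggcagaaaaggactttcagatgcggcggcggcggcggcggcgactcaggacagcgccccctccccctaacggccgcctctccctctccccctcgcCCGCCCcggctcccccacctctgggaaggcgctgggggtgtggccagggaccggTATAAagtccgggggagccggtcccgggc
IGFBP5: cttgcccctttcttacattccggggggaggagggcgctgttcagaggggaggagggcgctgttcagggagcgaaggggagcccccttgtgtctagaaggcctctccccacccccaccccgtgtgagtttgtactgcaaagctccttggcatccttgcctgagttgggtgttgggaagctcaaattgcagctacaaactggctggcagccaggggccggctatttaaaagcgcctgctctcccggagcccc

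The motifs were TATAA (TATA box), GGGCGG (GC box), ACGTG (hypoxia response core), TGANTCA (AP-1 site) and TGTTTAC (forkhead core), each sought on both strands. The IGFBP3 window held 2 GC boxes, the nearer of them 6 bases before the start, and was 76.0% G and C. In the IGFBP4 window a TATA box stood 29 bases and a GC box 83 bases before the start, at 71.6% G and C. None of these motifs was found in the IGFBP5 window, which was 61.2% G and C. Only the exact letters TATAA were sought as a TATA box. The IGFBP3 window holds tatata and the IGFBP5 window tatttaaa, so absence of a TATA box is not shown for either. Of 35116 windows of this length in the table, 18.9% held TATAA, 42.6% GGGCGG, 18.5% ACGTG, 6.6% TGANTCA and 3.0% TGTTTAC, and the median content of G and C was 58.0%. Of the 9 genes, 8 had an entry in the table, the exception being IGFBP7. A match of letters is a description and not evidence of binding.

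The lines were checked against cell type markers. The mesenchymal markers CD44, VIM and CHI3L1 summed to between 2026 and 2925 TPM in the 9 libraries, with VIM at means of 1640, 1214 and 616 TPM and CHI3L1 at 107, 557 and 1809 TPM in U87, GSCs and Diff cells. The glial and stem cell list (GFAP, OLIG2, SOX2, NES, PROM1 and FABP7) summed to 41.1 to 45.4 TPM in U87, 36.1 to 40.7 in GSCs and 22.4 to 23.6 in Diff cells. That order was set by NES, at means of 33.0, 22.6 and 13.5 TPM. The stem cell markers SOX2 (0.0383, 0.879 and 0.153 TPM in U87, GSCs and Diff cells), PROM1 (0.171, 0.507 and 0.0236 TPM) and FABP7 (0.731, 4.91 and 2.86 TPM) were each highest in GSCs, and SOX2 and PROM1 stayed under 1 TPM in every library. The neuronal list (TUBB3, MAP2, RBFOX3 and DCX) summed to 10.2 to 13.7 TPM in U87, 12.7 to 13.2 in GSCs and 26.5 to 27.5 in Diff cells, through MAP2 at 21.7 TPM, and its part in the results was not tested. Leukocyte markers (PTPRC, CD68, AIF1, CD3E, ITGAM) summed to at most 3.43 TPM. Endothelial markers summed to 16.4 to 18.9 TPM in GSCs and 2.66 to 5.55 elsewhere, through VWF and PECAM1, with CDH5 at or below 0.465 TPM. Epithelial markers (EPCAM, KRT5, KRT18 and CDH1) summed to 2.28 to 3.11 TPM in U87, 1.93 to 2.22 in GSCs and 1.57 to 6.79 in Diff cells. The highest of these sums was that of Diff replicate 1, through KRT5 at 5.54 TPM. Per library, RN7SL1, a noncoding RNA, took 5.73% to 9.79% of all TPM and mitochondrial transcripts took 25.9% to 31.8%. TPM keeps no depth, so counting error is unknown.

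IGFBP3 (chr7:45912245-45921874, minus strand, GENCODE 29) encodes the most abundant IGF carrier of blood. Its RNA stood at 628, 647 and 543 TPM in the U87 libraries, at 60.1, 46.0 and 37.7 TPM in GSCs and at 6.08, 6.61 and 6.64 TPM in Diff cells. The 3 lines did not overlap, and the lowest U87 library lay far above the highest library of GSCs. In fold terms the mean was 12.6 times as high in U87 as in GSCs, 7.44 times as high in GSCs as in Diff cells and 94.1 times as high in U87 as in Diff cells. On the scale of log2(TPM + 1), which understates the change of low genes, the differences were −3.65 for GSCs against U87, −2.69 for Diff cells against GSCs and −6.35 for Diff cells against U87 (SE 0.149 each). By mean TPM, IGFBP3 ranked 95 of all genes in U87, 2493 in GSCs and 11531 in Diff cells. In bulk RNA, fewer cells that make a transcript and less transcript per cell cannot be told apart.

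Tests of the other genes used limma across all 22909 genes with a mean TPM over 1, with Benjamini-Hochberg adjustment, and a gene was called where adjusted p was under 0.05 and the absolute log2 fold change over 1. IGFBP2 did not pass this filter on low values, so 8 of the 9 genes were in the fit and 7 were tested beside IGFBP3. Between GSCs and U87, 4 of the 7 were called, 3 higher and 1 lower, where 17.1% of all tested genes were called, 9.52% higher and 7.53% lower. The 3 that rose were IGFBP4, IGF1R and INSR, and the 1 that fell was IGFBP7. At adjusted p alone 6 of the 7 passed, and in 6 of the 7 the ranges of the lines were separate, against 48.6% and 55.8% of all tested genes. Their median log2 fold change was 0.97 against 0.02 over all tested genes. Between Diff cells and GSCs, 3 of the 7 were called, against 8.01% of all tested genes. IGFBP7 rose and IGFBP4 fell, where 2.66% of all genes rose and 5.36% fell. The third call was IGFBP5, which was in the fit only through its level in GSCs; it stands in every count here, and nothing is read from the counts for that reason. At adjusted p alone 6 of the 7 passed, and 6 had separate ranges, against 34.8% and 46.7% of all tested genes. Here the medians were −0.46 for these genes and −0.06 for all. The GSC libraries enter both comparisons, so that opposite signs in them are not independent. Between Diff cells and U87, 1 of the 8 genes in the fit differed by over 1 on the log2 scale, IGFBP3, where 12.3% of all tested genes were called, 5.92% higher and 6.36% lower. In 7 of the 8 the ranges were separate, against 55.2% of all tested genes. This contrast chose the genes, and nothing is read from these counts.

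**Figure D1:**
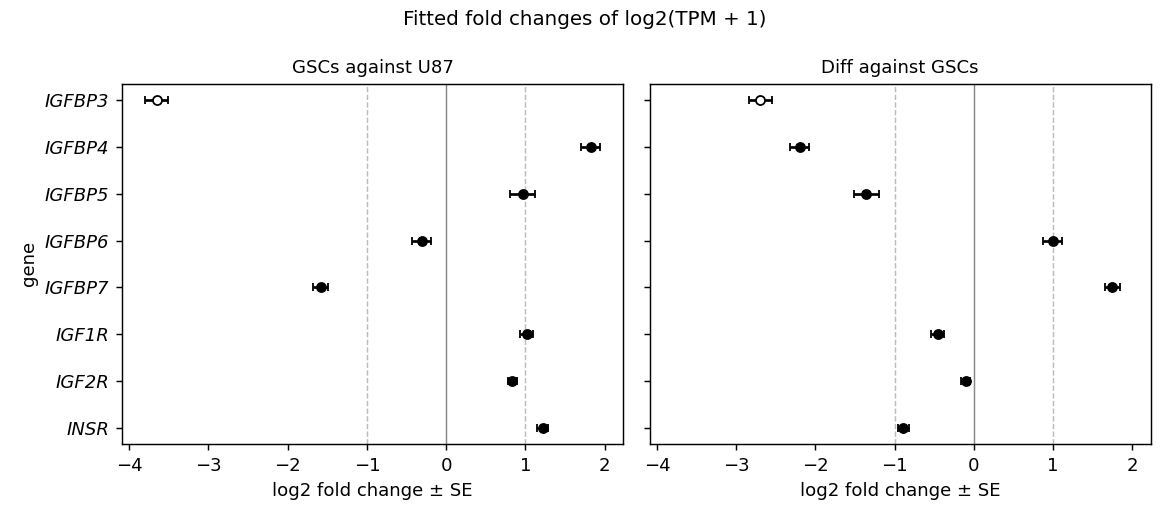
Fitted log2 fold change of each gene with its standard error, for GSCs against U87 (left) and Diff cells against GSCs (right), from 3 libraries per line. Dashed lines stand at −1 and 1, filled points are the other genes in the fit, and the open point is IGFBP3, shown as a description. IGFBP4 lies at 1.82 and −2.20, IGFBP7 at −1.58 and 1.75.

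IGFBP4 (chr17:40443461-40457731, plus strand) encodes a binding protein that mostly inhibits IGF action and is cut by the protease PAPPA. It was measured at 41.7, 34.5 and 46.1 TPM in U87, 151, 157 and 132 TPM in GSCs and 28.0, 31.1 and 34.3 TPM in Diff cells. All GSC libraries lay above all others, by a mean of 3.59-fold over U87 and 4.71-fold over Diff cells. The rise from U87 to GSCs was 1.82 on the log2 scale (SE 0.118, limma adjusted p = 3.54e-06) and the change from GSCs to Diff cells −2.20 (limma adjusted p = 4.31e-06). Diff cells and U87 lay close together, 0.38 apart on that scale, with Diff cells the lower.

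IGFBP5 (chr2:216672105-216695525, minus strand) encodes a binding protein that also attaches to extracellular matrix. It was rare: 0.887, 1.27 and 0.959 TPM in U87, 3.01, 3.28 and 2.65 TPM in GSCs, and 0.359, 0.592 and 0.725 TPM in Diff cells. The order of the lines was that of IGFBP4, with GSCs above U87 and U87 above Diff cells, and no 2 lines overlapped. It passed the filter through GSCs alone, since its mean was 1.04 TPM in U87 and 0.559 in Diff cells. A difference between GSCs and the other lines was thus built into its place in the fit, and its values are a description without p. The log2 difference was 0.97 between GSCs and U87 (SE 0.158) and −1.36 between Diff cells and GSCs, where the means differed 5.33-fold. At this level the pseudocount set the size of the log2 difference, which was 1.44 and −2.26 with a pseudocount of 0.1 and 0.40 and −0.52 with one of 5. Without U87 replicate 2 the first was 1.05, and without GSCs replicate 3 it was 1.03. AC007563.2 on the opposite strand covers 4.63% of its exon bases.

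IGFBP7 (chr4:57030773-57110385, minus strand) encodes a secreted protein of the same fold with weak affinity for IGFs. Its levels were 45.0, 40.0 and 46.3 TPM in U87, 14.8, 13.5 and 13.5 TPM in GSCs and 55.4, 48.8 and 43.5 TPM in Diff cells. GSCs stood apart as the low line, while U87 and Diff cells overlapped, at means of 43.7 ± 3.28 and 49.3 ± 5.97 TPM. IGFBP7 fell by 1.58 on the log2 scale from U87 to GSCs (SE 0.0964, limma adjusted p = 2.46e-06) and rose by 1.75 from GSCs to Diff cells (limma adjusted p = 4.75e-06). Exons of POLR2B and IGFBP7-AS1 on the opposite strand cover 18.9% of its exon bases, and whether the counting used strand is not given in the sources used here. IGFBP7-AS1 itself was at or below 0.219 TPM in every library. POLR2B, a subunit of RNA polymerase II, was at 70.1, 70.2 and 66.8 TPM in U87. It was at 80.2, 74.9 and 99.0 TPM in GSCs and 79.4, 78.3 and 79.1 TPM in Diff cells. GSCs and Diff cells thus overlapped in POLR2B, and its part in the IGFBP7 values was not tested.

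IGFBP6 (chr12:53097436-53102345, plus strand) encodes the binding protein with a preference for IGF2. The U87 libraries held 252, 217 and 278 TPM, GSCs 223, 207 and 173 TPM and Diff cells 368, 445 and 389 TPM. U87 and GSCs overlapped, with a log2 difference of −0.31 (limma adjusted p = 0.0666), and every Diff library lay above every other. The difference between Diff cells and GSCs fell on the limit: it was 1.00 after rounding (SE 0.122, limma adjusted p = 0.00039), was not called, and was called under 3 other scalings at 1.01 to 1.06. It was also called without GSCs replicate 1 (1.07), GSCs replicate 2 (1.02), Diff replicate 1 (1.05) or Diff replicate 3 (1.01). IGFBP6 was the most abundant of these genes in GSCs and in Diff cells.

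IGFBP2 (chr2:216632828-216664436, plus strand), the neighbour of IGFBP5, was close to 0 in all lines. It stood at 0, 0.0912 and 0.0534 TPM in U87, 0.0612, 0.11 and 0.105 TPM in GSCs and 0.735, 0 and 0.0291 TPM in Diff cells. The single value above the others belonged to Diff replicate 1. That library alone also held 5 keratin transcripts, KRT14 at 6.03, KRT5 at 5.54, KRT6A at 5.44, KRT17 at 3.06 and KRT16 at 1.50 TPM, none above 0.153 TPM in the other 8 libraries. They were the only protein-coding genes over 1 TPM there and under 0.2 TPM in all others, and their part in the IGFBP2 value was not tested. In the same library IGFBP3, IGFBP4, IGFBP5, IGFBP6 and IGF2R had the lowest values of the Diff line. IGFBP7 and IGF1R had the highest, and INSR lay between.

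IGFBP1, which lies beside IGFBP3 and was not among the 9 genes, encodes a binding protein under insulin control in liver. It was measured at 59.1, 49.3 and 52.7 TPM in U87, 0.619, 1.51 and 1.82 TPM in GSCs and 0.778, 1.50 and 0.840 TPM in Diff cells. GSCs and Diff cells overlapped and both lay far under U87. It fell by 4.60 on the log2 scale from U87 to GSCs (SE 0.221, limma adjusted p = 6.45e-07), and Diff cells differed from GSCs by −0.16 (limma adjusted p = 0.612). Unlike IGFBP1, IGFBP3 was again lower in Diff cells than in GSCs. IGFBPL1 and IGFALS, the latter the third subunit of the IGF complex of blood, were at or below 0.498 TPM in every library.

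The 7 genes IGFBP1 to IGFBP7 summed to 968 to 1027 TPM in U87, 361 to 452 TPM in GSCs and 459.8 to 534 TPM in Diff cells. U87 held more than the others because of IGFBP3, and without that gene the means were 388 ± 42.2, 366 ± 37.1 and 483 ± 39.1 TPM. IGFBP3 made up 60.9% ± 4.64 of the sum in U87, 11.5% ± 1.57 in GSCs and 1.32% ± 0.0805 in Diff cells (SD, n = 3). IGFBP6 went the other way, from 25.1% ± 3.45 to 48.6% ± 0.66 to 81.8% ± 1.64. IGFBP4 held 35.5% ± 1.87 in GSCs, against 4.11% ± 0.638 in U87 and 6.37% ± 0.741 in Diff cells. IGFBP7 held 10.1% ± 1.67 in Diff cells, 4.40% ± 0.366 in U87 and 3.38% ± 0.304 in GSCs. The transcripts thus came mostly from IGFBP3 in U87, from IGFBP6 and IGFBP4 in GSCs and from IGFBP6 in Diff cells. Shares in a sum are tied to one another, and these are given without a test.

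**Figure D2:**
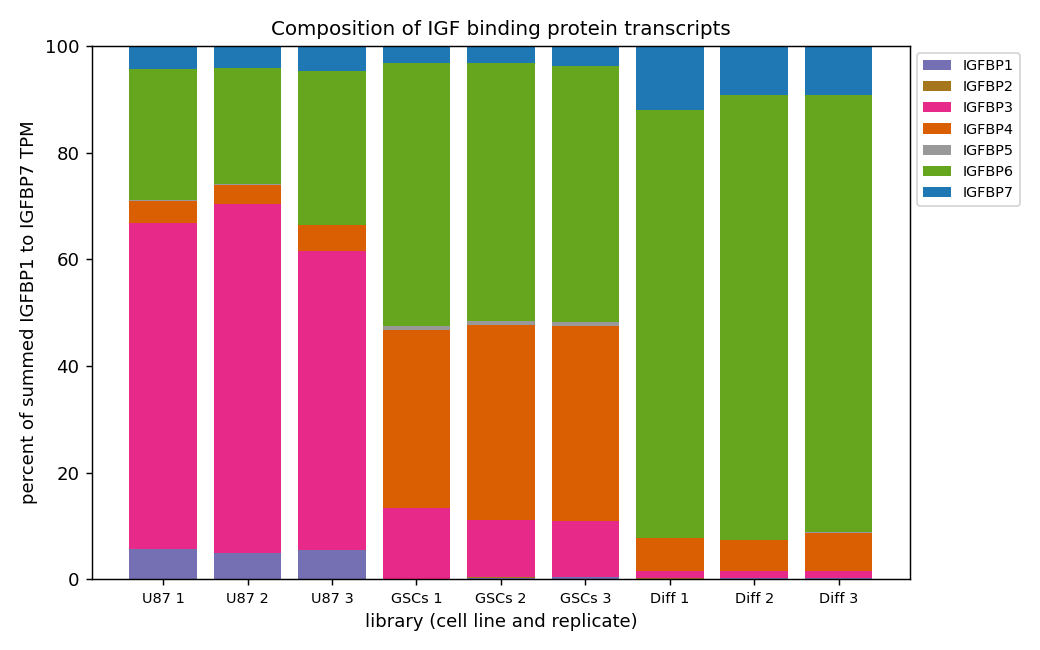
Percent of the summed TPM of IGFBP1 to IGFBP7 that each gene holds, with 1 stacked bar per library. IGFBP3 fills 56.2% to 65.4% of the U87 bars, 10.4% to 13.3% of the GSC bars and 1.24% to 1.40% of the Diff bars, where IGFBP6 fills 80.1% to 83.4%.

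Set in order of TPM, IGFBP3 and IGFBP6 led in U87 and were followed by IGFBP1. IGFBP7, IGFBP4 and IGF2R came next there with overlapping ranges, and IGF1R, INSR and IGFBP5 followed without overlap. In GSCs the order was IGFBP6, IGFBP4, IGF2R, IGFBP3, IGF1R, INSR, IGFBP7 and IGFBP5, and no 2 neighbours in it overlapped. In Diff cells it was IGFBP6, IGF2R, IGFBP7, IGFBP4, IGF1R, INSR and IGFBP3, again with each range apart from the next, and IGFBP5 and IGFBP1 stood below them.

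The 3 receptors were lowest in U87. IGF1R (chr15:98648539-98964530, plus strand), the main signaling receptor for IGFs, stood at 17.5, 17.2 and 14.7 TPM in U87, 32.2, 35.8 and 34.8 TPM in GSCs and 26.0, 23.4 and 24.6 TPM in Diff cells. GSCs were the highest line and Diff cells lay between, without overlap. IGF1R rose by 1.02 on the log2 scale from U87 to GSCs (SE 0.0823, limma adjusted p = 1.34e-05). This call sat on the limit. The difference was 0.87 with a pseudocount of 5, 0.99 after quantile normalization, 0.94 without U87 replicate 3 and 0.99 without GSCs replicate 2. Median-ratio scaling of the libraries also ended the call. The step from GSCs to Diff cells was −0.46 (limma adjusted p = 0.00291), less than the limit.

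INSR (chr19:7112255-7294034, minus strand), the insulin receptor, also forms hybrids with IGF1R. Its values were 8.82, 9.88 and 8.70 TPM in U87, 22.5, 23.0 and 22.1 TPM in GSCs and 11.8, 11.4 and 12.0 TPM in Diff cells. GSCs lay far above both other lines, and Diff cells a little above U87. INSR rose by 1.22 from U87 to GSCs (SE 0.0708, limma adjusted p = 1.9e-06), while Diff cells differed from GSCs by −0.89 (limma adjusted p = 3.44e-05), under the limit of 1. With a pseudocount of 5 the first difference was 0.96 and no longer called.

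IGF2R (chr6:159969099-160113507, plus strand) was the most abundant receptor of the 3 in every library. It was measured at 41.8, 40.9 and 37.7 TPM in U87, 68.1, 73.8 and 75.2 TPM in GSCs and 65.6, 67.1 and 69.0 TPM in Diff cells. GSCs exceeded U87 by 0.84 on the log2 scale (SE 0.0598, limma adjusted p = 6.44e-06), under the limit for a call, and overlapped with Diff cells (difference −0.10, limma adjusted p = 0.218). Unlike IGF1R and INSR, the level in Diff cells thus stayed close to that of GSCs.

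The ratio of IGF1R to INSR was 1.81 ± 0.159 in U87, 1.52 ± 0.0785 in GSCs and 2.11 ± 0.0941 in Diff cells (SD, n = 3). That of IGF2R to IGF1R was 2.44 ± 0.106, 2.11 ± 0.049 and 2.73 ± 0.184. GSCs had the lowest ratio in both cases, without overlap with either other line. On the log2 scale IGF1R to INSR differed by −0.24 between GSCs and U87 and by 0.47 between Diff cells and GSCs, and IGF2R to IGF1R by −0.21 and 0.37. Each of the 4 two-sided exact permutation tests gave p = 0.1, also after Benjamini-Hochberg adjustment, which is the smallest p that 3 against 3 libraries allow.

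The ligands were listed at low values. IGF1 was at or below 0.0936 TPM and IGF2 at or below 0.0579 TPM in all 9 libraries. INS was listed at 0 in 8 libraries and at 0.210 TPM in the other. None of the 3 passed the filter. Other annotated genes share 82.4% of the exon bases of IGF1, 75.0% of those of IGF2 and 31.7% of those of INS, and how such reads were assigned is not given in the sources used here, so these levels are uncertain.

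The lists of other pathway genes were written from general knowledge, with earlier results of these data known. They held 55 genes, of which 44 could be tested. Of these, 4 rose and 11 fell between U87 and GSCs, 2 rose and 3 fell between GSCs and Diff cells, and 4 rose and 9 fell between U87 and Diff cells, ADAM28 among the 9, a gene in the fit only through its level in U87. As shares these were 34.1%, 11.4% and 29.5%, against 17.1%, 8.01% and 12.3% of all tested genes. Because of how the lists were chosen, and with ADAM28 in the last share, nothing is read from these shares or from the counts per list below. At adjusted p alone 33, 28 and 31 of the 44 passed, against 48.6%, 34.8% and 39.4% of all tested genes. Their median log2 fold changes were −0.04, 0.01 and −0.09, against 0.02, −0.06 and −0.04 over all tested genes.

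One list held the proteases that cut binding proteins and the inhibitors of those proteases. Of 10 genes 9 were tested, and between U87 and GSCs 6 fell, where 7.53% of all tested genes fell. The median was −1.22, against 0.02 over all tested genes. At adjusted p alone 7 were lower, ADAM28 among them, and 1 higher, against 48.6% of all tested genes in either direction. STC1 and STC2, stanniocalcins that block PAPPA, were both among the 6 that fell. STC1 stood at 626 ± 23.7 TPM in U87, 269 ± 19.3 in GSCs and 32.9 ± 2.97 in Diff cells. From U87 to GSCs it fell by 1.22 on the log2 scale (limma adjusted p = 3.28e-06) and from GSCs to Diff cells it fell by 2.99 (limma adjusted p = 1.76e-07), without overlap of the lines. STC2 was at 97.0 ± 4.53, 30.7 ± 2.72 and 23.1 ± 2.45 TPM, and fell by 1.63 from U87 to GSCs (limma adjusted p = 1.61e-06).

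PAPPA, the metalloprotease that cuts IGFBP4, was called in no comparison, at 57.6 ± 6.37, 67.8 ± 2.93 and 83.8 ± 1.62 TPM in U87, GSCs and Diff cells. PAPPA-AS1 on the opposite strand covers 21.2% of its exon bases. Its relative PAPPA2, which cuts IGFBP3 and IGFBP5, stood at 25.0 ± 4.23, 2.49 ± 0.413 and 6.18 ± 0.376 TPM. PAPPA2 fell by 2.89 from U87 to GSCs (limma adjusted p = 7.35e-07) and rose by 1.05 from GSCs to Diff cells (limma adjusted p = 0.000666), the latter at 0.96 without GSCs replicate 2 and at 0.58 with a pseudocount of 5, and then not called. Diff cells thus had the lowest mean levels of STC1 and STC2 and the highest of PAPPA, which was not called. PAPPA2 in Diff cells was lower than in U87, at −1.84 on the log2 scale (limma adjusted p = 1.46e-05).

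HTRA1, a secreted serine protease, was at 671 ± 60.5 TPM in U87, 252 ± 13.1 in GSCs and 417 ± 13.2 in Diff cells, and fell by 1.41 between U87 and GSCs (limma adjusted p = 9.13e-07). ADAM12, which cuts IGFBP3 and IGFBP5, stood at 126 ± 11.5, 36.0 ± 0.914 and 41.2 ± 1.89 TPM and fell by 1.78 (limma adjusted p = 2.45e-07). ADAM9 fell by 1.13 in the same comparison (limma adjusted p = 8.82e-07). All of these lay lowest in GSCs. STC1, ADAM9 and ADAM28 are all on chromosome 8. ADAM28 passed the filter only through U87 and is given as a description, at 3.02 ± 0.29, 1.50 ± 0.149 and 0.342 ± 0.0358 TPM in U87, GSCs and Diff cells. CTSD, the lysosomal protease cathepsin D, rose by 1.27 from GSCs to Diff cells (limma adjusted p = 3.2e-05), but 52.7% of its exon bases are shared with other annotated genes and its level is uncertain.

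**Figure D3:**
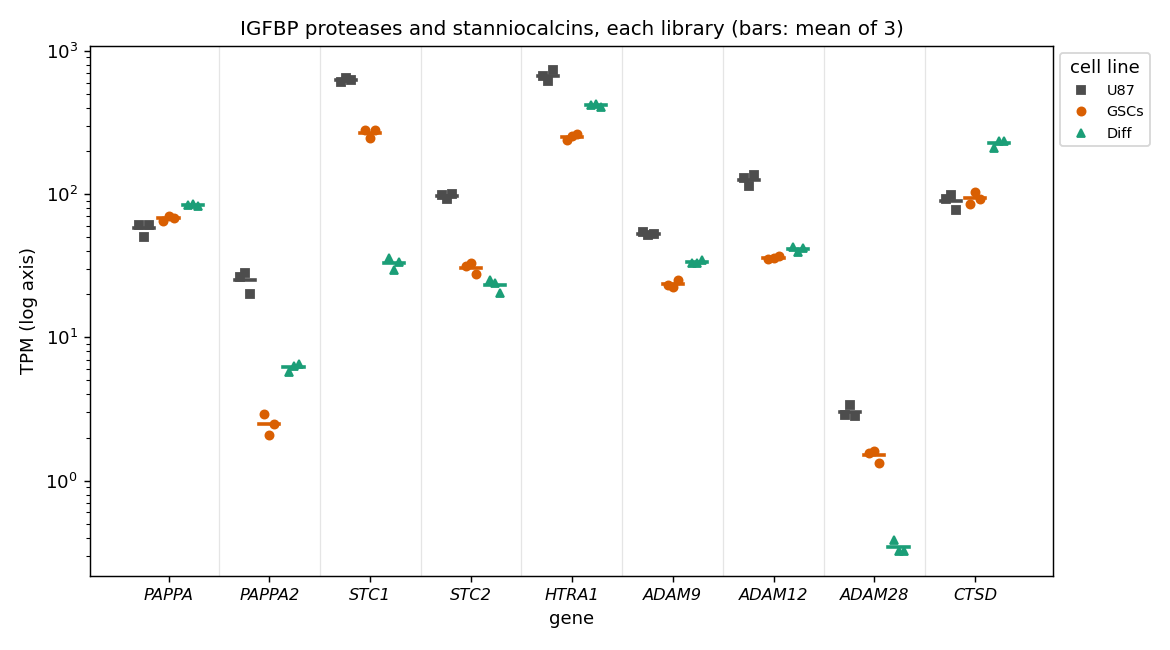
TPM of IGFBP proteases and of the stanniocalcins STC1 and STC2 on a log axis, with 1 point per library and a bar at the mean of the 3 libraries of a line. STC1 steps down from 626 to 269 to 32.9 TPM, PAPPA stays within 50.2 to 85.0 TPM, and PAPPA2, HTRA1, ADAM9 and ADAM12 are lowest in GSCs.

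Among proteins that bind IGFBPs without IGF, 6 of 7 could be tested. Between U87 and GSCs 1 rose and 2 fell, where 9.52% of all tested genes rose and 7.53% fell. LRP1, an endocytic receptor that binds IGFBP3, stood at 429 ± 26.8 TPM in U87, 876 ± 110 in GSCs and 344 ± 6.26 in Diff cells. Its rise of 1.02 from U87 to GSCs (limma adjusted p = 2.29e-05) sat on the limit, at 0.97 without U87 replicate 3 and 0.94 without GSCs replicate 2. The fall of 1.34 from GSCs to Diff cells (limma adjusted p = 1.41e-05) did not. ITGA5 and ITGB1, the chains of the fibronectin receptor to which IGFBP1 and IGFBP2 can bind, fell by 1.03 and 1.31 between U87 and GSCs (limma adjusted p = 2.93e-06 and 3.6e-06), the former to −0.98 without GSCs replicate 3. ITGB1 is on the short arm of chromosome 10, where genes were already known from these data to be lowered in the derived lines. The part of its position was not tested. TMEM219, described as a receptor for IGFBP3, was called in no comparison, at 62.7 ± 0.723, 78.8 ± 2.68 and 63.4 ± 5.28 TPM.

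Of the adaptors that carry the receptors' signal, 9 of 10 were tested. Between U87 and GSCs 2 rose and 1 fell, against 9.52% and 7.53% of all tested genes. IRS2, a docking protein of IGF1R and INSR, rose by 1.05 from 18.1 ± 2.59 to 38.5 ± 4.53 TPM (limma adjusted p = 8.65e-05), and SH2B2 rose by 1.04 (limma adjusted p = 0.000203). Neither call held without U87 replicate 3 or without GSCs replicate 2, at 0.96 and 0.96 for IRS2 and 1.00 and 0.97 for SH2B2, nor did that of SH2B2 without GSCs replicate 1, at 0.99. GRB14, an inhibitor of the insulin receptor, fell by 1.89 from 20.2 ± 2.58 to 4.89 ± 1.99 TPM (limma adjusted p = 0.000106). IRS1 and SHC1 were called nowhere, with IRS1 at 102, 71.0 and 98.8 TPM and SHC1 at 159, 105 and 113 TPM on average in U87, GSCs and Diff cells. GRB10, another inhibitory adaptor, was called between U87 and Diff cells, where it rose from 55.2 ± 3.58 to 128 ± 5.52 TPM (limma adjusted p = 4e-06), a difference of 1.19 on the log2 scale. GRB10 and SH2B2 are on chromosome 7, and the part of their position was not tested.

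Among 9 genes for receptor processing and negative control, 7 were tested. SOCS1, which limits insulin and cytokine signaling, fell by 2.13 from U87 to GSCs (limma adjusted p = 3.26e-05), from 34.0 ± 5.61 to 7.04 ± 1.86 TPM, and was at 5.24 ± 0.83 TPM in Diff cells. ENPP1, an inhibitor of the insulin receptor, fell by 1.02 from GSCs to Diff cells (limma adjusted p = 0.000185). This call sat on the limit and was lost without GSCs replicate 3, at −0.89. Over all alternatives the difference came as near to 0 as −0.85. PTPN1, a phosphatase of both receptors, and NEDD4, a ubiquitin ligase, were called in no comparison, with NEDD4 at −0.93 and PTPN1 at 0.32 between U87 and GSCs.

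The 10 genes for the mannose 6-phosphate route, in which IGF2R carries lysosomal enzymes, were all tested. Of them 1 rose between U87 and GSCs and 2 between U87 and Diff cells, where 9.52% and 5.92% of all tested genes rose. GNPTAB, the enzyme chain that starts the mannose 6-phosphate tag, stood at 16.7 ± 1.84 TPM in U87, 61.1 ± 9.9 in GSCs and 96.2 ± 7.01 in Diff cells, without overlap. It rose by 1.80 from U87 to GSCs (limma adjusted p = 4.35e-06), and the further 0.66 to Diff cells was under the limit (limma adjusted p = 0.00324). M6PR, the second receptor for the tag, was at 67.3 ± 10.1, 110 ± 1.92 and 142 ± 4.77 TPM and was called between U87 and Diff cells alone, at 1.08 (limma adjusted p = 3.36e-05) and at 0.96 without U87 replicate 3. PHC1 on the opposite strand covers 29.3% of its exon bases. GNPTAB, M6PR and IGF2R had their lowest levels in U87. That order was not shared by the whole list, since some of its other genes had their lowest mean in GSCs or in Diff cells. IGF2BP2 and IGF2BP3, which bind IGF2 mRNA, were called in no comparison, at means of 68.5 to 88.2 and 40.4 to 52.1 TPM.

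IGFBP3 and IGFBP1 lie tail to tail on chromosome 7 with 18576 bases between them. Of the 5 nearest tested genes on either side of IGFBP3, 9 of 10 had a log2 fold change above 0 between GSCs and U87. Their median was 1.05, against 0.02 over all tested genes. Gaps to IGFBP3 ran from 18576 to 2041413 bases. GTF2IP13, SEPTIN7P2, EPS15P1 and ENSG00000225507 are pseudogenes, and SNORA5C and RNU6-241P are small RNAs. Between GSCs and U87, 6 rose, namely SNORA5C, GTF2IP13, EPS15P1, TNS3, ENSG00000225507 and HUS1, and 1, IGFBP1, fell. Of all tested genes 9.52% rose and 7.53% fell there. SEPTIN7P2, RNU6-241P and ENSG00000223829 were not called, at 0.19, 0.80 and 0.40. EPS15P1 had means of 0.221, 2.46 and 1.27 TPM in U87, GSCs and Diff cells, and RNU6-241P of 0.924, 2.32 and 0.442 TPM. Both were in the fit only through their level in GSCs, and nothing is read from their values. Both also stand in the counts and the median given above for GSCs against U87, so nothing is read from those either. TNS3, a focal adhesion protein, rose from 7.86 to 25.0 TPM on average, by 1.55 on the log2 scale (limma adjusted p = 4.27e-07). HUS1, a checkpoint protein, rose from 23.7 to 50.5 TPM, by 1.06 (limma adjusted p = 2.02e-06). IGFBP1 and IGFBP3 were thus lower in GSCs than in U87, while SNORA5C, GTF2IP13, TNS3, ENSG00000225507 and HUS1 were higher. Genes of chromosome 7 were already known from these data to be raised in the derived lines. Between Diff cells and U87, 7 of 10 neighbours of IGFBP3 were above 0, EPS15P1 among them, with a median of 0.84 against −0.04 over all tested genes. The share of all tested genes above 0 is not given here for either comparison, and nothing is read from this count. IGFBP2 and IGFBP5 lie on chromosome 2 with 7668 bases between them. Of the 10 tested neighbours of IGFBP5, 5 rose and 1 fell between U87 and GSCs, against 9.52% and 7.53% of all tested genes. DIRC3, among the 5, had means of 0.542, 5.80 and 1.27 TPM in U87, GSCs and Diff cells. It was in the fit only through its level in GSCs, and nothing is read from this count.

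**Figure D4:**
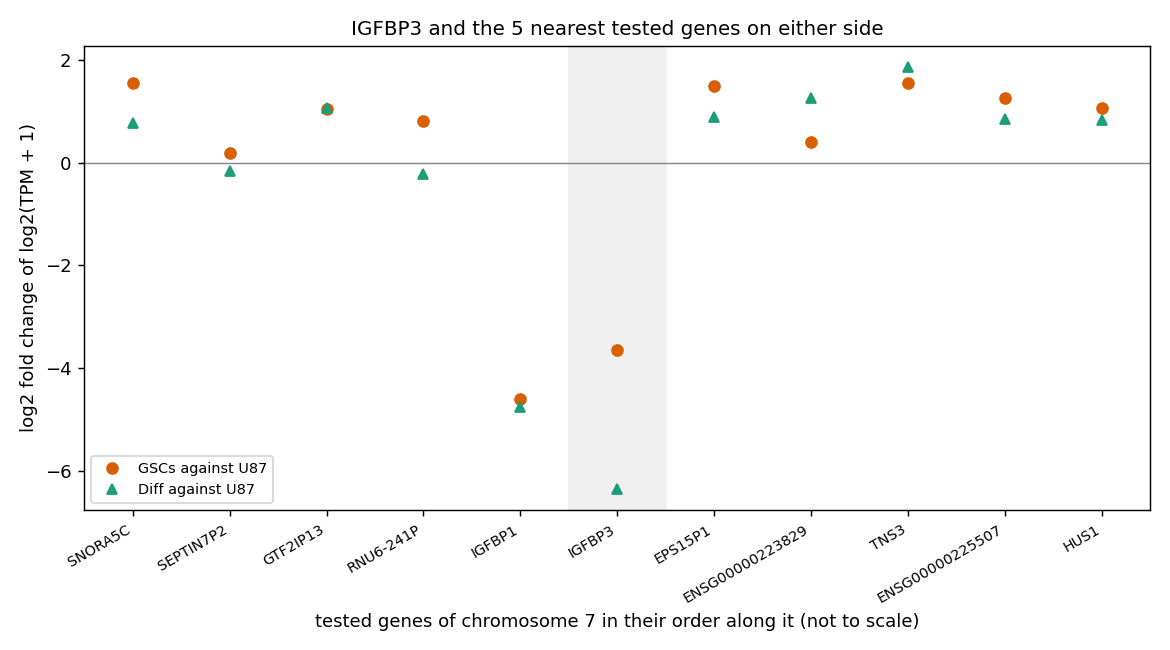
Fitted log2 fold change against U87 of IGFBP3 (shaded) and of the 5 nearest tested genes on either side, in their order along chromosome 7 and not to scale, for GSCs (circles) and Diff cells (triangles). IGFBP1 and IGFBP3 lie between −3.65 and −6.35, while 9 of the 10 neighbours lie above 0 in GSCs and 7 of 10 in Diff cells.

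The genes with the pattern most like that of IGFBP3 were sought by Pearson correlation of log2(TPM + 1) over the 9 libraries, among 9851 protein-coding genes with a mean TPM over 5. These points hold 3 levels, 1 per line, so that any gene with the same order and spacing of lines scores high, and no p is given. ARFGEF3 came first at r = 0.999 (means of 12.5, 3.14 and 0.857 TPM in U87, GSCs and Diff cells). NOTCH3, a Notch receptor, followed at r = 0.997 (67.2, 6.78 and 0.255 TPM), and then PGK1, a glycolytic kinase, at r = 0.997 (628, 257 and 144 TPM). For IGFBP4, whose range of means was the widest after IGFBP3, PHF1 and TFPI2 were among the nearest, each at r = 0.993. TFPI2, a protease inhibitor of the matrix, stood at 367, 1507 and 316 TPM. HEG1 (r = 0.998), ASCC2 (r = 0.993) and DAAM1 (r = 0.991) were nearest to IGFBP7, with HEG1 at 71.5, 38.1 and 75.6 TPM. All of these are likenesses of level across the 3 lines.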

How the data were processed

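Libraries were made per the labels from total RNA of cultured cells after Magzol extraction and removal of ribosomal RNA, with a directional kit and paired-end sequencing, whereas the study's methods describe Trizol and oligo(dT) beads. The submitters' processing notes name FastQC 0.11.9, Trimmomatic 0.39, HISAT2 2.2.1, featureCounts 2.0.5, R 4.2.0 and GRCh38, while the annotation and the use of strand in counting are not given in the sources used here. The authors deposited log2(TPM + 1) for 60606 genes in 9 libraries, with values from 0 to 16.6. Transformed back, each library summed to 1000000 TPM, so length and depth had been divided out, count tests do not apply, and counting error is unknown.

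Genes with a mean TPM over 1 (22909) were fitted by lmFit and eBayes (trend) of limma 3.58.1, under R 4.3.3, on log2(TPM + 1), a pseudocount of 1, with 3 groups in 1 model and Benjamini-Hochberg adjustment per comparison. The fit was first tested on simulated data. Exact permutation tests used scipy 1.17.1, and figures matplotlib 3.10.9, all under Python 3.11.15 with numpy 2.4.6 and pandas 2.3.3. Samples were grouped by their titles. Gene coordinates and overlaps are those of GENCODE 29, matched by symbol, and sequences those of RefSeq for GRCh38.p14.

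The genes and lists were chosen with earlier results of these data known. Named were all 9 genes, every pathway gene called in any comparison, up to 2 of the most abundant others per list, the 3 genes most like each of 3 members, and the neighbours of IGFBP3; 1 gene under this rule is not reported here. POLR2B, IGFBP7-AS1, the keratins and the markers are named beside the results they touch. KRT5 was in the epithelial marker list, and the other keratins were picked after their values were seen. Alternatives covered the pseudocount, the filter, scaling, the samples in the fit, the threshold, a replicate block and omission of each library. A test on read counts was not run.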

Additional observations from a re-analysis of the deposited data

How the results depend on the processing

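With a pseudocount of 5 in place of 1, 2 of the 7 tested genes were called between GSCs and U87 in place of 4, and 3 pathway genes between Diff cells and GSCs in place of 5. At adjusted p alone, 6 of the 7 were called between Diff cells and GSCs in place of 3, and 33, 28 and 31 pathway genes in place of 15, 5 and 13 between GSCs and U87, Diff cells and GSCs, and Diff cells and U87. Over all genes, 3908, 1836 and 2812 calls in these comparisons became 11129, 7982 and 9024 at adjusted p alone and 1707, 673 and 1146 with a pseudocount of 5.

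Leaving out each library in turn gave 3 to 5 of the 7 genes called between GSCs and U87 and 3 to 4 between Diff cells and GSCs, and 12 to 15, 4 to 5 and 12 to 14 pathway genes in the 3 comparisons. Of 94 results on single genes, 10 changed their call without 1 library. CTSD between GSCs and U87 ranged from −0.0293 to 0.14 and GRB14 between Diff cells and GSCs from −0.34 to 0.10, so both changed sign; neither was called. Replicate numbers did not pair the libraries, since deviations of libraries with the same number correlated at −0.0416 to 0.0489. With a replicate block, 4 of the 7 genes were called between GSCs and U87 as without it, and 0 of the calls on single genes changed. In no scaling did the median of all genes move by over 0.1 on the log2 scale. TPM without counts limits what can be said of IGFBP2, IGFBP5 and the ligands.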
